A study of Mus musculus with 16 samples.

Results

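The genes described here are 10 genes of glycolysis and lactate handling: the glucose transporter gene Slc2a1, the hexokinase genes Hk1, Hk2 and Hk3, the phosphofructokinase gene Pfkp, its regulator Pfkfb3, the aldolase gene Aldoa, the pyruvate kinase gene Pkm, the lactate dehydrogenase gene Ldha and the lactate exporter gene Slc16a3. They were taken by symbol, and all 10 were found among the 47069 gene identifiers of the table. Gene expression was measured by RNA sequencing in 16 mouse libraries, all from mice given DEN, diethylnitrosamine, a carcinogen that gives liver tumours. There were 3 libraries of 9-month tumours from mice on a high-fructose diet and 2 of 9-month tumours from mice on the cornstarch diet. Liver tissue gave 3 fructose and 3 cornstarch libraries at 9 months, and 2 fructose and 3 cornstarch libraries at 5 months. No animal without DEN and no other diet was part of these groups, so the cornstarch groups are carcinogen-treated controls. The labels do not say whether libraries came from separate mice, and p-values therefore measure only the spread between these libraries. Libraries are numbered within a group in the order in which they were listed.

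Glycolysis splits glucose into pyruvate, and several of its steps are run by isozymes that are encoded by different genes in different cells. Hepatocytes rely among others on the transporter Slc2a2, the liver-type phosphofructokinase Pfkl and the pyruvate kinase Pklr. Many other cells, among them leukocytes, stromal cells and proliferating tumour cells, use Slc2a1, the hexokinases, Pfkp, Aldoa and Pkm, and export lactate through Slc16a3, which encodes the monocarboxylate transporter MCT4. In bulk tissue, fewer cells of a type and less RNA per cell cannot be told apart, and no value below assigns a transcript to a cell.

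Values are normalised counts, that is, the whole reads of a gene divided by a factor for each library. Per kilobase of exon, the mean level over the 16 libraries was 4206 normalised counts for Ldha, 702 for Aldoa and 179 for Pkm. Ldha is the main lactate dehydrogenase gene of mouse liver too, and on the same per-kilobase scale the heart-type gene Ldhb averaged 38.7, so the label of an isozyme of other cells does not suit Ldha. Per kilobase, Slc2a1 averaged 73.4, Pfkfb3 69.4 and Hk3 40.9. The lowest per-kilobase means were 14.9 for Hk1, 12.9 for Hk2, 7.17 for Pfkp and 6.36 for Slc16a3. The span from the lowest to the highest library was 31.2-fold for Slc16a3, 18.6-fold for Hk2 and 15-fold for Pkm, against 2.82-fold for Ldha and 2.73-fold for Aldoa. The least abundant exporter thus varied most between libraries, and the abundant Ldha and Aldoa varied least.

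Several of these genes are known targets of hypoxia-inducible factor (HIF), so the windows around their transcription starts, from 250 bases before to 50 bases after the start, were searched for the core letters ACGTG and GCGTG on either strand. The 10 genes have 16 such windows of 300 bases in RefSeq (GRCm38.p6). At least 1 match was found in 13 of the 16 windows, against 43.8% of all 32851 windows. Each of the 10 genes had a window with a match, against 46.7% of all 27025 genes. The 10 genes have more windows per gene than all genes, which favours the count by gene. In addition, 2 Aldoa windows overlap and hold the same ACGTG match, which is counted in both. Neither was corrected for. ACGTG, with or without GCGTG, was in 11 of the 16 windows and 19.6% of all windows. GCGTG, with or without ACGTG, was in 6 of the 16 windows and 32.4% of all. The E-box CACGTG, which holds ACGTG on both strands and so counts as 2 overlapping matches, was in 2 of the 16 windows and 7.15% of all. The GC box GGGCGG was in 10 of the 16 and 35.7% of all. The members' windows held 49.0% to 73.3% G and C, against a median of 52.7% over all windows, and the part of base composition in these shares was not tested. A match is a run of letters and not a measured binding site. In 5-month liver Slc16a3, Pkm and Ldha were called higher under fructose (limma, adjusted p under 0.05), and Pfkfb3 was not called. The 95% interval of Pfkfb3 there, -1.23 to 2.36 (log2), holds the Ldha estimate of 1.08. It does not hold the estimates of Pkm, 2.55, and Slc16a3, 3.59. The windows below are those of Slc16a3, Pkm, Ldha and Pfkfb3. Each runs 5′ to 3′ on the gene's strand, with the ACGTG and GCGTG matches in capitals.
Slc16a3: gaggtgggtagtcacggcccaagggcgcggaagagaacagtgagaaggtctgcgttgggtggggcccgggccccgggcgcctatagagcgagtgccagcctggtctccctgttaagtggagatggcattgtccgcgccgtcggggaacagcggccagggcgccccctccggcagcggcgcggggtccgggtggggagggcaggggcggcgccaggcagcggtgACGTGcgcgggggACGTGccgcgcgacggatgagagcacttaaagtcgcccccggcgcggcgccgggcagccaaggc
Pkm, second start: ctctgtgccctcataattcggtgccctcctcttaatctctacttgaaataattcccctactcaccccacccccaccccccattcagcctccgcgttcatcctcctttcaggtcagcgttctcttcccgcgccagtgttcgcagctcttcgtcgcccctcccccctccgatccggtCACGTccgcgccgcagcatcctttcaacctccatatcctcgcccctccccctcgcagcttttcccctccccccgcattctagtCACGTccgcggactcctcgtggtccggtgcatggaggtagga
Ldha, first start: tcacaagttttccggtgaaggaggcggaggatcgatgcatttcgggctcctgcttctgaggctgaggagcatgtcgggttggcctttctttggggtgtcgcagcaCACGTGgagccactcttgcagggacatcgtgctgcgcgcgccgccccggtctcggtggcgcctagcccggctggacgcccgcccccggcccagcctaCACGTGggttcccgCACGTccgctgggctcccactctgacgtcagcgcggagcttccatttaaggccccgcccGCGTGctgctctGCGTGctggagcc
Pfkfb3, second start: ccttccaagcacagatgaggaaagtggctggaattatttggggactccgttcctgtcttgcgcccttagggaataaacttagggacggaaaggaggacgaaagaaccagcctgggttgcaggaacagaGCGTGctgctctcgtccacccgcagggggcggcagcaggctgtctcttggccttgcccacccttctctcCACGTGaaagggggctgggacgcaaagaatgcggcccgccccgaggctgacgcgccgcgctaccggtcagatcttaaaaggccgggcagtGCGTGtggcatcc
The Slc16a3 window lies at chr11:120948817-120949116 on the plus strand and has 2 matches, which begin 27 and 14 bases before the start. The Pkm window lies at chr9:59656977-59657276 on the plus strand and also has 2 matches, while the window of the first Pkm start, at chr9:59656326-59656625, has 0. The Ldha window, at chr7:46845554-46845853 on the plus strand, has 7 matches, the most among the 16 windows, and 2 E-boxes. The Pfkfb3 window, at chr2:11502041-11502340 on the minus strand, has 4 matches, while the window of the first Pfkfb3 start, at chr2:11553880-11554179, has 1. The number of matches thus differed between starts of the same gene.

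Between 11232461 and 38377674 reads per library were counted in genes, and each of the 10 genes passed the filter of at least 10 normalised counts in at least 2 libraries, also from the cornstarch libraries alone. Liver identity was plain in every library, since the 10 hepatocyte marker genes summed to between 1441835 and 4380655 normalised counts. Replicate 1 of the 5-month fructose livers and replicate 1 of the 5-month cornstarch livers expressed Xist and at most 1.91 normalised counts of Y-linked genes, against at least 1593 in each of the other libraries. The 5-month groups therefore each hold 1 female library, and the diet comparisons of liver were also run without those 2 libraries. That leaves 1 fructose library at 5 months, replicate 2. What such a fit gives for 5-month liver, here and below, rests on that library and shows no spread between fructose livers. Replicate 3 of the 9-month cornstarch livers had the lowest Y-linked value outside the female libraries, 1593. It also had 226 normalised counts of Xist, against at most 25.8 in the other libraries with Y-linked signal. This library was kept where the female libraries were left out, and the source of its Xist was not tested. Neutrophil, monocyte and cell-cycle genes also set the 5-month fructose livers apart, as described with the diet comparison.

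Fructose feeding went with higher levels of 9 of the 10 genes in 5-month liver. The median log2 fold change of the 10 genes was 1.85, against -0.01 over all 14317 genes tested. Slc16a3, the lactate exporter, changed most, by 12.0-fold, followed by Pkm at 5.86-fold, Hk3 at 4.28-fold and Pfkp at 4.04-fold. Hk2 and Hk1 were 3.94-fold and 3.30-fold higher, Ldha 2.12-fold, and Slc2a1 and Aldoa both 1.81-fold. Pfkfb3 alone did not pass. The share of all genes tested that passed was 10.3% higher and 4.48% lower (limma, Benjamini-Hochberg adjusted p under 0.05), while 9 of the 10 members passed higher and 0 lower; edgeR and DESeq2 on the recovered reads called the same 9. The calls over all genes, 1478 higher and 641 lower, became 1226 higher and 1071 lower after quantile normalisation, which called the same 9 members. In these 9 genes, both fructose libraries lay above each of the 3 cornstarch libraries, a pattern seen in 27.1% of all genes tested. Without the 2 female libraries 1 fructose library remained. The log2 fold changes of the 10 genes then lay between 0.72 for Pfkfb3 and 3.65 for Slc16a3, each larger than with those libraries. Fewer members passed there, and also without fructose replicate 1 or replicate 2. Each of these fits rests on 1 fructose library and cannot show that the difference holds between fructose livers.

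At 9 months the diet difference was smaller in liver and covered fewer genes. Hk3, Pkm and Pfkp were higher in fructose liver by 2.82-fold, 2.62-fold and 2.21-fold, and the median log2 fold change of the 10 genes was 1.09, against -0.02 over all genes tested. They encode a hexokinase, pyruvate kinase and a phosphofructokinase, enzymes of steps that run one way only. Hk1 and Hk2 encode enzymes of such a step too and did not pass. The share of all genes tested that passed was 2.32% higher and 0.217% lower, beside 3 of the 10 members higher and 0 lower. The ranks separated more genes. In 7 of the 10, adding Slc2a1, Hk1, Hk2 and Slc16a3, all 3 fructose libraries lay above all 3 cornstarch libraries, against 12.9% of all genes tested. DESeq2 called 6 members, adding Slc2a1, Hk1 and Hk2. The 9-month calls rest on few libraries. They fell to 0 without any one of the 3 fructose libraries, without cornstarch replicate 3, without the 2 female 5-month libraries that enter the shared estimate of spread, and in a fit of the 6 compared libraries alone. They fell to 1, Pkm, without either 5-month fructose library, and were 2, Hk2 and Pfkp, without cornstarch replicate 2. Averaged over both ages, 8 members passed higher and 0 lower, the exceptions being Ldha and Pfkfb3, against 13.8% of all genes higher and 7.61% lower. That is 1970 and 1089 genes, against 1590 and 1687 under quantile normalisation, which called 9 members. Over both ages 7 members passed without the 2 female libraries, Aldoa no longer among them.

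**Figure D1:**
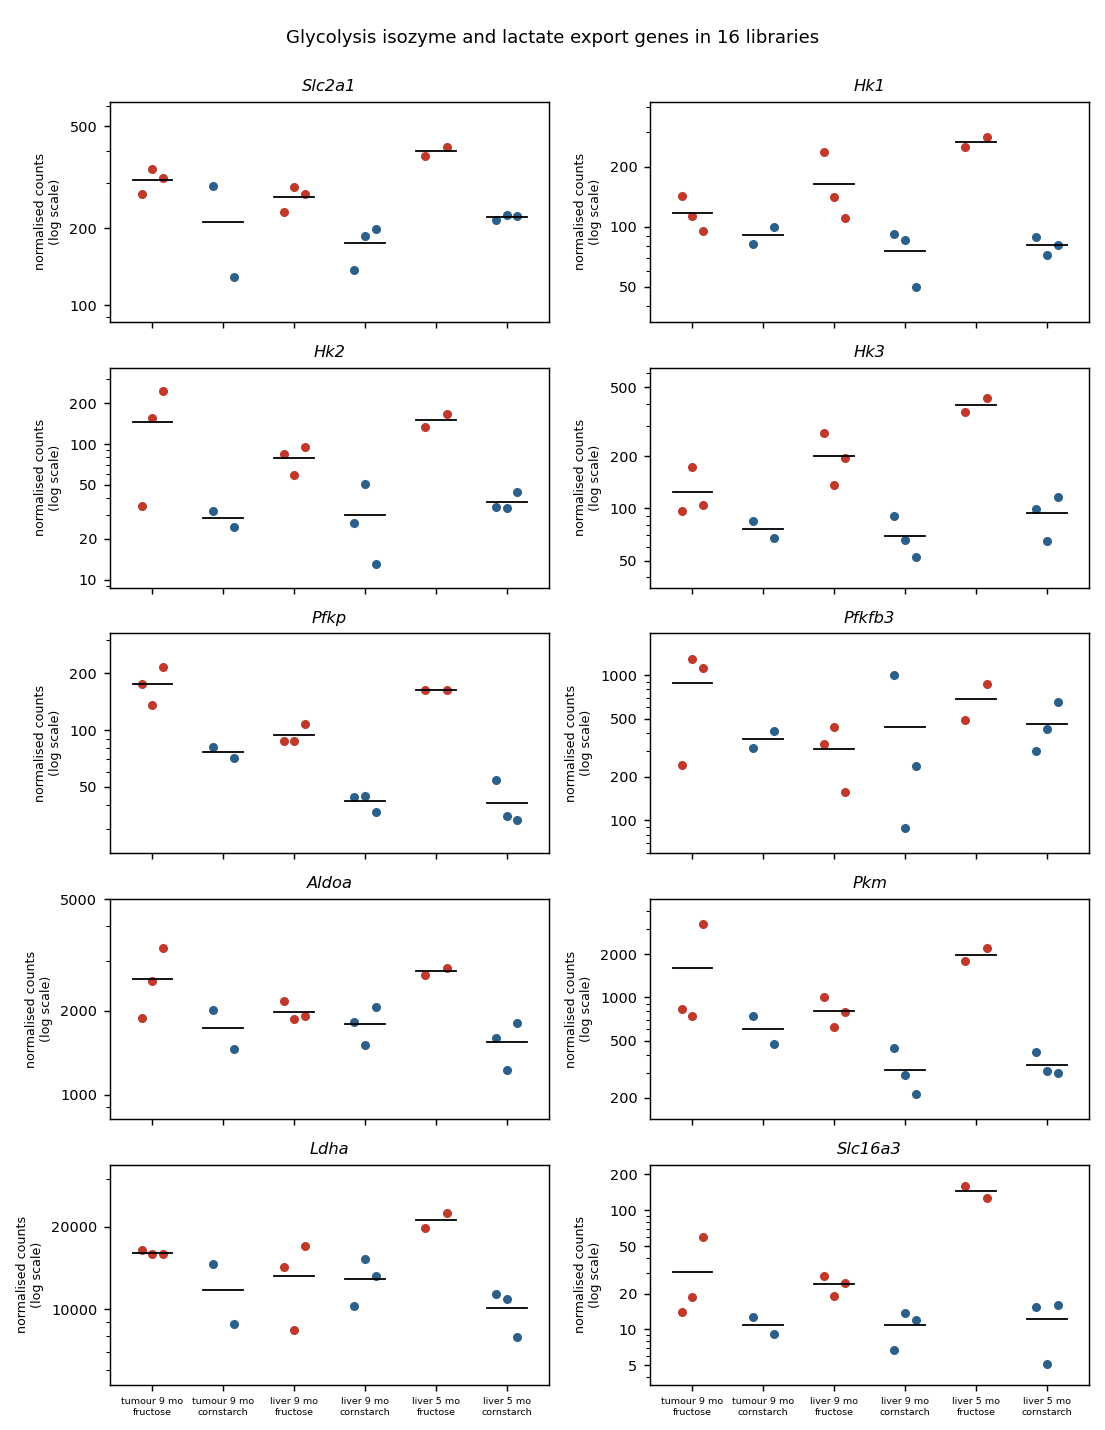
Normalised counts of each gene on a log scale in the 16 libraries, by group, with fructose in red, cornstarch in blue and the arithmetic mean of each group as a line. Both 5-month fructose livers lie above the 3 cornstarch livers in every panel but that of Pfkfb3, and Slc16a3 reaches 160 and 127 there while no other library exceeds 59.2.

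Glucose enters by transporters and is trapped by hexokinases. Slc2a1, on chromosome 4 (GRCm38 119108711 to 119137983), encodes the transporter GLUT1, the glucose carrier of the blood-brain barrier and of many dividing cells. It had 384 and 415 normalised counts in fructose livers at 5 months, against 215, 224 and 222 in cornstarch livers. At 9 months it had 231, 290 and 271 in fructose livers, against 137, 187 and 199 in cornstarch livers. The groups did not overlap at either age, and the log2 fold change was 0.85 (SE 0.18, adjusted p = 0.0107) at 5 months and 0.61 (SE 0.16, adjusted p = 0.0767) at 9 months, which did not pass.

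Hk1, on chromosome 10 (62268855 to 62379908), encodes the hexokinase found in most tissues. In 5-month liver it had 252 and 283 normalised counts under fructose, against 88.8, 71.9 and 81.2 under cornstarch. In 9-month liver the fructose values were 239, 142 and 111 and the cornstarch values 91.6, 86.1 and 50, so fructose replicate 1 stood high and the others lay nearer the cornstarch libraries. The log2 fold change was 1.72 (SE 0.33, adjusted p = 0.00691) at 5 months and 1.08 (SE 0.29, adjusted p = 0.0834) at 9 months. Hk2, on chromosome 6 (82725025 to 82774454), encodes the hexokinase of muscle and fat that many tumours use. It had 134 and 166 normalised counts in fructose livers at 5 months, against 34.4, 33.9 and 43.9 in cornstarch livers, with a log2 fold change of 1.98 (SE 0.45, adjusted p = 0.0152). At 9 months it had 84.3, 59.4 and 94.3 under fructose, against 26.0, 50.7 and 13.1 under cornstarch. No library of one diet reached the range of the other at either age, but the 9-month difference of 1.55 (log2, SE 0.40) did not pass, with an adjusted p of 0.0717.

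Hk3, on chromosome 13 (55005985 to 55021385), encodes a hexokinase known chiefly from myeloid cells. It had 357 and 432 normalised counts in 5-month fructose livers, against 99.3, 64.7 and 117 in cornstarch livers. In 9-month livers it had 271, 137 and 196 under fructose, against 90.6, 66.1 and 52.4 under cornstarch. The fructose libraries lay wholly above the cornstarch libraries at both ages, with log2 fold changes of 2.10 (SE 0.34, adjusted p = 0.00296) at 5 months and 1.5 (SE 0.30, adjusted p = 0.0342) at 9 months. Among the 3 hexokinases it is the only one that passed at 9 months in the fit used here. That gives no test of a difference between them.

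Phosphofructokinase sets the pace of the pathway, and Pfkfb3 makes the sugar phosphate signal that activates it. Pfkp, on chromosome 13 (6579768 to 6648777), encodes the platelet-type enzyme. It had 163 and 164 normalised counts in 5-month fructose livers, against 54.4, 34.9 and 33.3 in cornstarch livers. At 9 months the values were 87.4, 87.3 and 107 under fructose, against 44.4, 44.6 and 36.9 under cornstarch. The diets did not overlap at either age, and the log2 fold change was 2.01 (SE 0.24, adjusted p = 0.000808) at 5 months and 1.14 (SE 0.22, adjusted p = 0.0299) at 9 months. Pfkfb3, on chromosome 2 (11471433 to 11554077), passed at neither age. It had 489 and 873 normalised counts in 5-month fructose livers, against 302, 429 and 656 in cornstarch livers, and 334, 441 and 158 in 9-month fructose livers, against 1000, 89.1 and 238 in cornstarch livers. The diets overlapped at both ages, and in 9-month cornstarch liver replicate 1 alone held the high value. The log2 fold change was 0.57 (95% interval -1.23 to 2.36, adjusted p = 0.692) at 5 months and 0.04 (-1.56 to 1.65, adjusted p = 0.98) at 9 months, intervals wide enough to hold changes as large as those of the hexokinases.

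Aldolase splits the 6-carbon sugar. Aldoa, on chromosome 7 (126795234 to 126800751), encodes the aldolase of muscle and most other tissues. It had 2678 and 2842 normalised counts in 5-month fructose livers, against 1593, 1225 and 1811 in cornstarch livers, with no overlap and a log2 fold change of 0.86 (SE 0.18, adjusted p = 0.0117). At 9 months it had 2163, 1870 and 1907 under fructose and 1814, 1509 and 2064 under cornstarch. These ranges overlapped, and the difference of 0.15 (log2, SE 0.16, adjusted p = 0.643) did not pass. Skeletal muscle is the tissue richest in Aldoa, and the 7 skeletal muscle markers summed to at most 13.4 normalised counts in any library, with the muscle creatine kinase gene Ckm at 0 in all 16.

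Pyruvate kinase makes pyruvate in the last step. Pkm, on chromosome 9 (59656368 to 59679375), encodes the isozyme of most cells other than hepatocytes and red cells, and gene-level counts do not separate its splice forms. It had 1781 and 2190 normalised counts in 5-month fructose livers, against 416, 306 and 298 in cornstarch livers. At 9 months it had 1008, 620 and 792 under fructose, against 442, 290 and 214 under cornstarch. Every fructose liver exceeded every cornstarch liver of its age, and the lowest fructose liver of all, with 620, exceeded the highest cornstarch liver, with 442. The log2 fold change was 2.55 (SE 0.29, adjusted p = 0.000646) at 5 months and 1.39 (SE 0.26, adjusted p = 0.0299) at 9 months.

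Ldha turns pyruvate into lactate, and Slc16a3 exports it. Ldha, on chromosome 7 (46841475 to 46855627), had 19822 and 22438 normalised counts in 5-month fructose livers, against 11373, 10909 and 7963 in cornstarch livers. At 9 months the values were 14277, 8400 and 17053 under fructose and 10290, 15230 and 13233 under cornstarch. The 5-month groups were apart, with a log2 fold change of 1.08 (SE 0.30, adjusted p = 0.0359), whereas the 9-month groups overlapped fully, with a difference of -0.01 (SE 0.27, adjusted p = 0.993). Slc16a3, on chromosome 11 (120948480 to 120960868), had 160 and 127 normalised counts in 5-month fructose livers, against 15.3, 5.14 and 16.0 in cornstarch livers. At 9 months it had 28.1, 19.0 and 24.5 under fructose, against 6.75, 13.8 and 11.9 under cornstarch. Both ages showed no overlap. The log2 fold change was 3.59 (SE 0.47, adjusted p = 0.00114) at 5 months and 1.11 (SE 0.42, adjusted p = 0.178) at 9 months, and on this log2(value + 1) scale the change of so low a gene is understated.

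**Figure D2:**
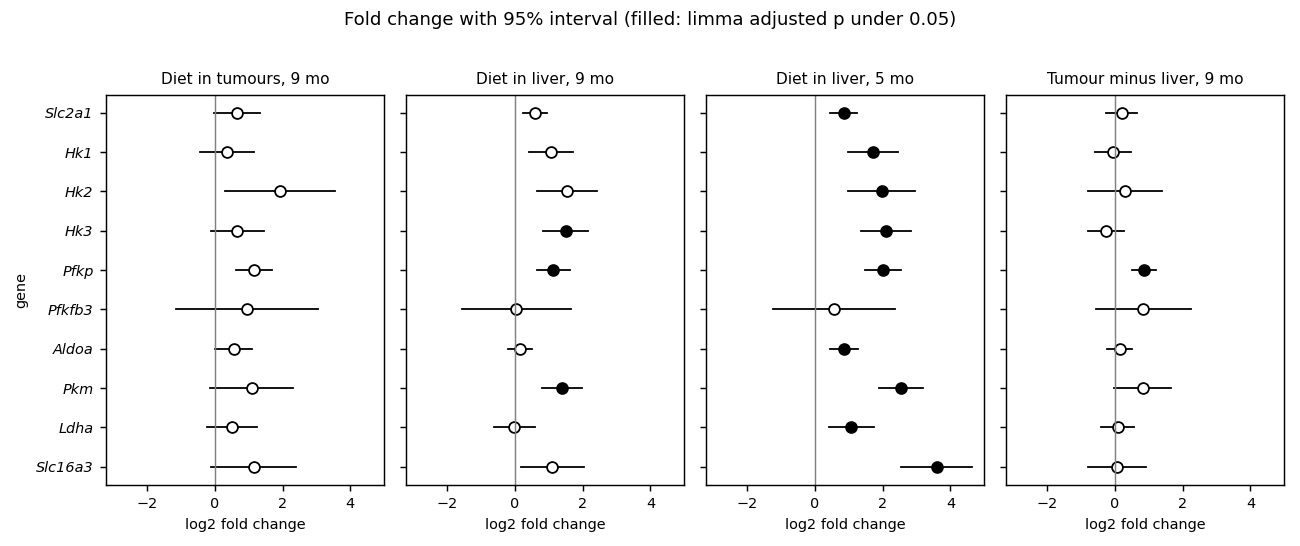
Log2 fold change of each gene with its 95% interval for diet (fructose minus cornstarch) in tumours, in 9-month liver and in 5-month liver, and for tumour minus liver over both diets at 9 months. Filled points passed limma at an adjusted p under 0.05, which 9 genes did for diet in 5-month liver, 3 in 9-month liver, 0 in tumours, and Pfkp alone between tumour and liver.

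Other cell types' genes moved with the same contrast. In 5-month liver all 12 neutrophil and granulocyte precursor markers and all 6 monocyte markers passed higher under fructose. Of these, Ctsg, Camp, Elane and Fcnb met the filter of at least 10 only through the 2 fructose livers of that age. The red cell precursor marker Epb42 did likewise. These genes were tested only because they were high there, so their calls add no support. The neutrophil list summed to 26933 and 24677 normalised counts in the fructose livers, against 60.6 to 178 in the cornstarch livers, where Ctsg was at 0. The monocyte list summed to 1849 and 2162 in fructose livers and to 69.2 to 75.0 in cornstarch livers, where Fcnb was at 0. Of the macrophage and Kupffer cell markers 5 of 14 passed, with sums of 33782 and 39319 under fructose and 12171 to 20674 under cornstarch. Of the cell-cycle genes 9 of 10 passed, with sums of 2777 and 2444 under fructose and 657 to 800 under cornstarch, and 6 of 10 stellate cell and 2 of 10 endothelial cell markers passed. Of the red cell precursor markers 3 of the 5 tested passed higher, with sums of 1983 and 1622 under fructose and 337 to 2416 under cornstarch, which overlap, and 2 of 6 B and plasma cell markers passed. The cholangiocyte list and the T and NK cell list each had 1 marker that passed higher. Without the 2 female libraries 1 fructose library remained at 5 months, and Ctsg, Camp, Elane, Fcnb and Epb42 no longer met the filter. Fewer monocyte, macrophage, cell-cycle, stellate cell, red cell precursor and B and plasma cell markers passed there. Of the 10 hepatocyte markers 0 passed (limma; 1 had an unadjusted p under 0.05, edgeR called 0 and DESeq2 2). In 9-month liver 8 of 14 macrophage markers passed higher under fructose, with sums of 25424 to 35205 against 5055 to 15342 under cornstarch. There 1 of 12 neutrophil markers passed, with sums of 323 to 436 under fructose and 98.4 to 171 under cornstarch, and 1 of 6 monocyte markers. Of the stellate cell markers 4 of 10 passed higher, with sums of 6693 to 7930 under fructose and 3841 to 4856 under cornstarch. Of the endothelial markers 1 of 10 passed and 9 had an unadjusted p under 0.05, with sums of 8106 to 11219 under fructose and 2679 to 6229 under cornstarch. Monocyte sums were 139 to 215 under fructose and 63.6 to 129 under cornstarch, and cholangiocyte sums 1267 to 1604 and 835 to 1026. Macrophage, monocyte, neutrophil, stellate, endothelial and cholangiocyte sums thus did not overlap between diets at 9 months. The cholangiocyte sum was mostly 1 gene, Spp1, at 1104 to 1419 under fructose and 749 to 980 under cornstarch. Of the 6 cholangiocyte markers tested 0 passed in limma, edgeR or DESeq2, and 3 had an unadjusted p under 0.05 in limma. The neutrophil sum separated the ages of fructose liver far more than the macrophage sum did. With the female libraries left out, 2 of 14 macrophage and 1 of 10 stellate cell markers passed at 9 months, and 0 of the neutrophil, monocyte and endothelial lists. The part of these cells in the differences of the 10 genes was not tested.

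**Figure D3:**
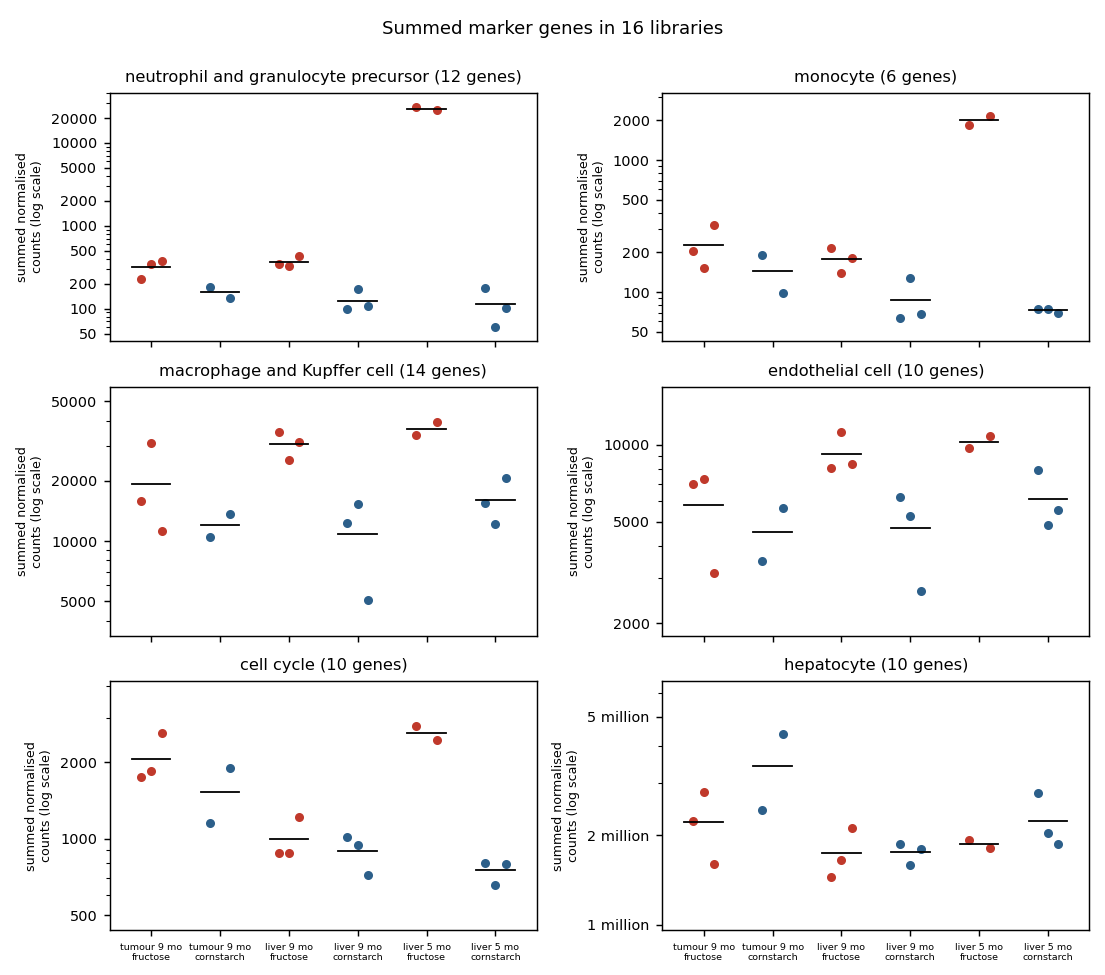
Summed normalised counts of marker genes for 5 cell types and the cell cycle on log scales in the 16 libraries, fructose in red, cornstarch in blue, with group means as lines. The neutrophil and monocyte sums of the 2 fructose livers at 5 months stand above all other libraries, the macrophage sum is high in fructose liver at both ages, and the hepatocyte sums overlap between diets in liver.

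Age was examined at matched diet over the 11 liver libraries, as 9 months minus 5 months. Both female libraries are of 5 months, so sex differs in part between the ages. All 10 genes had negative log2 differences, with a median of -0.59, and none passed in limma (0 of 10, against 2.77% of all genes called in either direction), though 6 had an unadjusted p under 0.05. edgeR called Slc16a3 and DESeq2 called Slc16a3, Slc2a1 and Pkm, 3 members, all lower at 9 months. Without 9-month cornstarch replicate 1, Slc2a1 and Pkm passed in limma, and without 5-month cornstarch replicate 2, Slc16a3 did. The largest differences were those of Slc16a3, -1.31 (SE 0.32, adjusted p = 0.0555), Pfkfb3, -0.93 (SE 0.54, adjusted p = 0.333), and Pkm, -0.74 (SE 0.20, adjusted p = 0.0714). Without the female libraries, with 1 fructose library left at 5 months, these were -1.11, -1.27 and -0.73. The part of sex in the age differences was not tested. In the fructose arm Slc16a3 reached at most 28.1 normalised counts at 9 months, against at least 127 at 5 months. The cornstarch arms of this gene overlapped, at 6.75 to 13.8 at 9 months and 5.14 to 16.0 at 5 months.

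The diet effect at 9 months minus that at 5 months was negative in all 10 genes, with a median of -0.68 on the log2 scale. None passed in limma (0 of 10, against 0.698% of all genes), 5 had an unadjusted p under 0.05, edgeR called 0 and DESeq2 called 1, Slc16a3. For Slc16a3 the difference of effects was -2.48 (SE 0.63, 95% interval -3.88 to -1.09, adjusted p = 0.13). For Pkm it was -1.16 (SE 0.40, adjusted p = 0.28), for Ldha -1.09 (SE 0.40, adjusted p = 0.322) and for Pfkp -0.87 (SE 0.32, adjusted p = 0.33). A smaller diet effect at the later age was therefore the estimate for each gene, without a call in the fit used here.

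In tumours the fructose libraries had higher estimates for all 10 genes, but none passed. The median log2 fold change was 0.81, against -0.03 over all 14503 genes tested, and 0 of the 10 members and 0% of all genes were called by limma. An unadjusted p under 0.05 was found for 3 members, Pfkp, Hk2 and Aldoa. edgeR called 0 members and DESeq2 1, Pfkp. In Hk2, Hk3, Pfkp, Pkm, Ldha and Slc16a3, which is 6 of the 10 genes, all 3 fructose tumours lay above both cornstarch tumours, against 10.9% of all genes tested. Each member kept its positive direction in every alternative that tested it.

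The phosphofructokinase gene had the steadiest difference between tumours by diet. Pfkp had 176, 135 and 217 normalised counts in fructose tumours, against 81.6 and 71.1 in cornstarch tumours, with a log2 fold change of 1.17 (SE 0.24, adjusted p = 0.236). Every fructose tumour exceeded both cornstarch tumours by more than the spread within cornstarch tumours. Hk2 had 34.8, 155 and 244 normalised counts in fructose tumours, against 32.0 and 24.6 in cornstarch tumours. Fructose replicate 1 was close to the cornstarch tumours, and the log2 fold change of 1.93 (SE 0.73, adjusted p = 0.55) carries that spread.

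Pkm had 835, 743 and 3213 normalised counts in fructose tumours, against 739 and 474 in cornstarch tumours. The value of fructose replicate 3 was the highest Pkm value of all 16 libraries, and the lowest fructose tumour, with 743, was barely above the higher cornstarch tumour, with 739. The log2 fold change was 1.09 (SE 0.56, adjusted p = 0.648) and ranged over 0.413 to 1.47 as single libraries were left out. Slc16a3 had 13.9, 18.6 and 59.2 normalised counts in fructose tumours, against 12.6 and 9.11 in cornstarch tumours, and replicate 3 was again the high library. In that tumour Hk2 (244), Aldoa (3342) and Pfkp (217) also had their highest values of the 16 libraries. The same tumour had the lowest macrophage and Kupffer cell sum of the fructose tumours, 11225 against 15879 and 30861, and the lowest endothelial sum, 3153 against 7006 and 7326. It had the highest cell-cycle sum of the tumours, 2605 against 1748 and 1845 in the other fructose tumours and 1158 and 1895 in the cornstarch tumours. Its monocyte sum, 324, and its neutrophil sum, 378, were also the highest of the tumours. Its hepatocyte sum, 1605794, was the lowest of the tumours, where the others held 2228812 to 4380655. The part of these in its high values was not tested.

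The other members differed less between tumours. Slc2a1 had 271, 340 and 313 normalised counts in fructose tumours, against 292 and 129 in cornstarch tumours, which overlapped. Hk1 had 143, 114 and 95.7 in fructose tumours against 81.6 and 100 in cornstarch tumours, also overlapping, and Hk3 had 96.5, 174 and 104 in fructose tumours against 85.0 and 67.4 in cornstarch tumours, without overlap. Aldoa had 1878, 2543 and 3342 in fructose tumours, against 2002 and 1453 in cornstarch tumours. Ldha was nearly level among fructose tumours, with 16445, 15959 and 15909 normalised counts, against 14600 and 8850 in cornstarch tumours. Pfkfb3 split the fructose tumours, with 240, 1291 and 1124 normalised counts, against 317 and 414 in cornstarch tumours. Replicate 1 was the lowest of the 5 tumours for this gene, and replicate 2 the highest of all 16 libraries.

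Tumour was compared with 9-month liver over both diets. Of the 10 members 1 passed, against 13.4% of all genes higher and 10.5% lower, so members were called no more often than all genes. This member was Pfkp, 1.82-fold higher in tumours (log2 0.86, SE 0.16, adjusted p = 0.00415). Its normalised counts in fructose tumours, 135 to 217, lay above the 87.3 to 107 of fructose livers, and those in cornstarch tumours, 71.1 and 81.6, lay above the 36.9 to 44.6 of cornstarch livers. This gene passed higher in tumours in all 20 settings run. Pkm was 1.76-fold higher in tumours (log2 0.82, SE 0.37), with an adjusted p of 0.138 in limma, and DESeq2 called it. In the cornstarch arm its 474 and 739 normalised counts in tumours lay above the 214 to 442 of livers. In the fructose arm its 743 to 3213 in tumours overlapped 620 to 1008 in livers. All tumours lay above all livers in 1 of the 10 members under fructose, against 17.2% of all genes tested. Under cornstarch that held for 2 members, against 21.8% of all genes tested. For the other 8 genes the difference did not pass, with log2 estimates between -0.26 for Hk3 and 0.84 for Pfkfb3. The difference of diet effects, tumour minus liver, passed for 0 members and 0% of all genes in limma, 0 members had an unadjusted p under 0.05, and edgeR and DESeq2 also called 0. Its 95% interval ran from -0.68 to 0.73 for Pfkp and from -1.96 to 1.36 for Pkm. Tumours also differed from liver in marker lists. Of the cell-cycle genes 7 of 10 passed higher, and of the stellate cell markers 4 passed higher and 1 lower of 10. Of the macrophage markers 1 passed higher and 3 lower of 14, of the hepatocyte markers 1 higher and 2 lower of 10, and of the red cell precursor markers 2 of the 4 tested passed lower. The monocyte and cholangiocyte lists each had 1 marker higher, and the endothelial list 1 lower. The part of these in the Pfkp difference was not tested.

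The balance of 4 of the genes against another gene of the same step was read per kilobase of exon, as a percent of the other gene's level. Pkm stood at 29.5% and 62.7% of Pklr in 5-month fructose livers, against 1.35% to 5.32% in cornstarch livers, and the fructose pair was the highest of the 6 groups. At 9 months it stood at 3.75% to 21.1% in fructose livers and 1.63% to 3.92% in cornstarch livers, which overlapped. In tumours Pkm stood at 10.3% to 26.4% of Pklr under fructose, and 5.59% to 13.9% under cornstarch. Pklr itself had a log2 fold change of -1.74 (SE 0.71, adjusted p = 0.128) for diet in 5-month liver, which did not pass. Slc2a1 stood at 13.4% and 32.3% of Slc2a2 in 5-month fructose livers, against 3.88% to 4.59% in cornstarch livers. Slc2a2, the hepatocyte transporter, passed lower there, at -1.41 (log2, SE 0.30, adjusted p = 0.0113), so both sides of this ratio moved. Pfkp stood at 11.3% to 12.7% of Pfkl in fructose tumours, against 4.74% to 6.15% in cornstarch tumours, and this was the highest range of any group. Slc16a3 stood at 13.9% and 15.6% of Slc16a1, the other lactate carrier, in 5-month fructose livers, and at or below 3.12% in each library of the other groups. In each of these pairs the second gene was the more abundant in all 16 libraries.

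**Figure D4:**
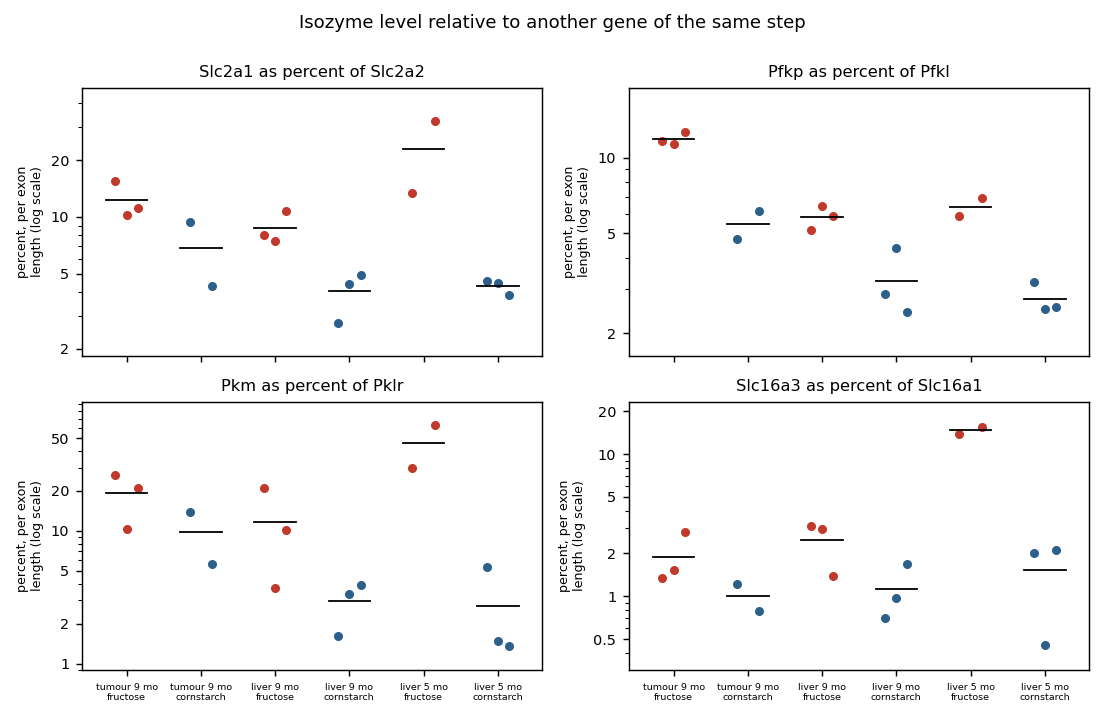
Level of 4 isozyme or transporter genes as a percent of another gene of the same step, per kilobase of exon, on log scales in the 16 libraries, fructose in red and cornstarch in blue, with lines for group means. The 5-month fructose livers are highest for Pkm to Pklr (29.5% and 62.7%) and Slc16a3 to Slc16a1 (13.9% and 15.6%), and the fructose tumours for Pfkp to Pfkl (11.3% to 12.7%).

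Among the 8 hepatocyte isozymes and transporters, 1 passed higher and 1 lower for diet in 5-month liver. The higher gene was Pfkl (log2 0.82, adjusted p = 0.0258) and the lower was Slc2a2. With the female libraries left out 0 passed higher and 2 lower, Slc2a2 and the monocarboxylate transporter gene Slc16a7. At 9 months 0 of the 8 passed in limma, 0 had an unadjusted p under 0.05, and edgeR and DESeq2 called 0. Of 20 genes of shared and other glycolysis steps, 18 were tested in liver, and 5 passed higher and 1 lower at 5 months. The higher ones were the transporter genes Slc2a3 (log2 3.35) and Slc2a6 (2.64), Pfkfb4 (2.84), which like Pfkfb3 controls phosphofructokinase, Bpgm (1.53), which makes the haemoglobin ligand of red cells (red cell precursor markers also passed there, and their part in Bpgm was not tested), and the phosphoglucomutase gene Pgm1 (1.57). The muscle-type phosphofructokinase gene Pfkm was lower (-0.54, adjusted p = 0.0436). In this list 4 passed higher without the 2 female libraries, Slc2a3, Slc2a6, Pfkfb4 and Pgm1, and 0 lower. At 9 months 1 of the 18 passed, Slc2a6, higher by 2.35 (log2, SE 0.41, adjusted p = 0.0251), and without the female libraries 0 did. The shared middle steps encoded by Gapdh, Pgk1, Eno1 and Tpi1 were tested and passed in neither direction at either age. The median over this list was 0.25 at 5 months and -0.04 at 9 months, against -0.01 and -0.02 over all genes.

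Genes of pyruvate's further fate went both ways in 5-month liver. Of 13 genes 12 were tested, and 3 passed higher and 5 lower. Bsg, which encodes basigin, the partner that carries lactate transporters to the cell surface, was higher by 1.56 (log2, SE 0.23, adjusted p = 0.00215). Pdk3, a kinase that switches pyruvate dehydrogenase off, was higher by 1.95 (SE 0.35, adjusted p = 0.00506), and the D-lactate dehydrogenase gene Ldhd by 0.85 (adjusted p = 0.0359). The pyruvate dehydrogenase subunit genes Pdhb (-0.94, adjusted p = 0.00635), Pdha1 (-0.70, adjusted p = 0.0119) and Dlat (-0.88, adjusted p = 0.0212) were lower. So were the mitochondrial pyruvate carrier gene Mpc1 (-0.77, adjusted p = 0.0476) and Pdk1 (-1.50, adjusted p = 0.0173), another kinase of the same complex. Without the 2 female libraries 2 passed higher, Bsg and Pdk3, and 3 lower, Pdhb, Pdha1 and Pdk1. At 9 months 0 of the 12 passed in limma, 4 had an unadjusted p under 0.05, edgeR called 0 and DESeq2 1. Between tumour and liver, Pdk2 (-1.09, adjusted p = 0.00708) and Ldhd (-1.31, adjusted p = 0.00776) were lower in tumours and 0 of the 12 were higher.

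Of 14 hypoxia and HIF1 targets outside glycolysis 12 were tested in liver, and 3 passed higher and 0 lower under fructose at 5 months. Among them were Adm (log2 2.12, adjusted p = 0.0125), which encodes the vasodilator adrenomedullin, and Ndrg1 (1.60, adjusted p = 0.0243). The list's median was 0.46, against 1.85 for the 10 members. Without the 2 female libraries 1 of the 12 passed, neither Adm nor Ndrg1. At 9 months 0 of the 12 passed in limma, 3 had an unadjusted p under 0.05, and edgeR and DESeq2 called 0. Of 10 regulators of glycolysis 1 passed at 5 months, the splicing factor gene Hnrnpa1 (0.66, adjusted p = 0.0288), and 0 did without the female libraries. Hif1a had a log2 fold change of -0.07 (adjusted p = 0.848) and Myc of -0.27 (adjusted p = 0.788) there. In tumours, against liver, Myc (1.45, adjusted p = 0.00346) and the splicing factor gene Ptbp1 (0.28, adjusted p = 0.0481) were higher, and Ppargc1a (-0.91, adjusted p = 0.0148) and Mlxipl (-0.59, adjusted p = 0.0456), which encodes the carbohydrate response factor ChREBP, were lower. These changes concern RNA levels and not the activity of the encoded factors.

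The 10 genes varied together to unequal degrees over the 16 libraries, which share the 6 groups. Pearson's r of log2 values was 0.91 between Pkm and Pfkp, 0.90 between Hk1 and Hk3, and 0.80 between Aldoa and Slc16a3. After the group means were removed, it was 0.68, 0.46 and 0.74 for these pairs, so part of the likeness of Pkm and Pfkp and of Aldoa and Slc16a3 lay between libraries of 1 group. Pfkfb3 was the least like the rest, with r between -0.06 with Ldha and 0.52 with Aldoa.

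The genes nearest to each member by the same correlation, among 10508 candidates, were of several kinds. For Hk3 they included Fermt3 (r = 0.971), a gene of leukocyte adhesion, and Rac2 (0.957), which encodes a GTPase of blood cells, and for Hk1 they included Arhgap30 (0.963) and Itgam (0.956), a myeloid integrin gene. For Slc16a3 they were Elane (0.931), Prtn3 (0.923), Socs3 (0.921), S100a9 (0.921) and Mpo (0.919), of which Elane, Prtn3 and Mpo encode proteins of neutrophil primary granules. Pfkp had Fabp4 (0.955), which capillary endothelium and fat express, and Cd93 (0.937), and Pkm had the adenine nucleotide carrier gene Slc25a4 (0.943) and the actin gene Actg1 (0.932). Aldoa had the amino acid transporter gene Slc7a5 (0.854) and Bsg (0.851), and Ldha had Lrg1 (0.849). Those of Hk2 included Ano6 (0.900), those of Slc2a1 included Gpx3 (0.864), and Foxk2 (0.846) was the nearest for Pfkfb3. The libraries share depth and cell content, and these values describe likeness only.

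Some of the counts may hold reads of other genes. Exons of Pfkp share 748 bases, or 5.58% of its exon length, with the opposite-strand gene Pitrm1, which averaged 548 normalised counts. Pkm shares 767 exon bases with a same-strand gene model. Hk3 shares 34 bases with Unc5a and Aldoa 25 with Fam57b, both on the opposite strand. Whether the counting used strand is not given in the sources used here, and for Aldoa, Ldha and Pkm, which have processed pseudogenes, the split of reads is uncertain too.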

How the data were processed

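Liver and tumour RNA was sequenced in 16 mouse libraries made with an mRNA kit, per the labels' protocols. The deposited signal is 1 table of normalised counts. FastQC, Trim Galore, STAR, RSEM and DESeq2 with the build GRCm38 are listed in the submitters' processing notes, and versions and strandedness are not given in the sources used here. In each column 100% of the values above 0 were whole multiples, within 0.01 read, of 1 step per library, so whole reads were recovered: between 11232461 and 38377674 per library. Of 47069 identifiers 46488 (98.8%) matched GENCODE M21, from which coordinates and exon lengths were taken. The main test was limma 3.58.1 (R 4.3.3) with an intensity trend on log2(value + 1), with Benjamini-Hochberg adjustment over all genes with at least 10 in at least 2 libraries of the fit. 1 fit took the 11 liver libraries and 1 the 11 libraries of 9 months, so both share the 9-month livers. edgeR 4.0.16 (quasi-likelihood) and DESeq2 1.42.0 on the recovered reads, other pseudocounts, filters and scalings, other sets of libraries and each library left out were alternatives. The limma fit was tested on simulated data. All 10 genes are named, and from each pathway or marker list those that passed first. Likeness was ranked among genes with a mean of at least 50. The members and lists were chosen with earlier results of these data known. Depth limits low genes most, and counting error is only part of the spread between libraries. Some genes of the pathway and likeness lists are not reported here.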

Additional observations from a re-analysis of the deposited data

How the results depend on the processing

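The number of the 10 genes that passed for diet in 5-month liver was 9, and it was 4 without the 2 female libraries and between 4 and 9 as single libraries were left out, the lowest without fructose replicate 2. For diet in 9-month liver 3 passed, DESeq2 called 6, the fit of the compared groups alone and the fit without the female libraries 0, and single libraries left out gave 0 to 3. For age 0 passed, a pseudocount of 5, quantile normalisation and edgeR each called 1 and DESeq2 3, with 0 to 2 as libraries were left out. For the difference of diet effects between ages, a pseudocount of 5 and DESeq2 each called 1. DESeq2 called 1 for diet in tumours and 2 between tumour and liver. The causes of these changes were not tested, beyond the smaller number of libraries where some were left out. For diet in tumours, its difference from liver and the age difference of diet effects, 0 passed with any library left out, and between tumour and liver 1 did.

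Directions reversed for genes that were not called. For diet in 9-month liver, Ldha (log2 -0.01) was 0.0119 with TMM, 0.205 with quantile normalisation, 0.053 with edgeR and 0.0407 with DESeq2, and -0.22 to 0.291 as libraries were left out. Pfkfb3 (0.04) was -0.512 with edgeR and -0.502 with DESeq2, and -0.771 to 0.966 as libraries were left out. Over the libraries left out, Pfkfb3 ranged over -0.101 to 0.767 for diet over both ages and -1.34 to 0.396 for the age difference of diet effects, where Hk2 ranged over -0.9 to 0.0371. Between tumour and liver, Slc16a3 was -0.122 with quantile normalisation, and the ranges were -0.241 to 0.262 for Slc16a3, -0.0935 to 0.491 for Slc2a1, -0.198 to 0.0912 for Hk1 and -0.0919 to 0.269 for Ldha. Of 1478 comparisons with an alternative, over 70 results, 1384 kept direction and side of the threshold.

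Counts over all genes moved more. For diet in 5-month liver 2119 genes passed, against 973 without the female libraries, 459 and 1054 without fructose replicates 2 and 1, and 1185 and 1263 without cornstarch replicates 2 and 3. For diet in 9-month liver 363 passed, against 960 with DESeq2, 221 with quantile normalisation, 46 without the female libraries, 0 in the compared groups alone, 0 to 11 without any of the 3 fructose libraries or cornstarch replicate 3, 154 and 147 without 5-month fructose replicates 1 and 2, and 233 without 5-month cornstarch replicate 2. Over both ages 3059 passed, against 1416 without 5-month fructose replicate 2. For age 397 passed, against 1081 with DESeq2, 42 without the female libraries, 15 and 68 without 5-month fructose replicates 2 and 1, and 129 to 796 without each of the other liver libraries. For the age difference of diet effects 100 passed, against 318 with DESeq2, 174 with a pseudocount of 5, 40 with 0.5, 46 with edgeR, 38 with a filter of 50 and 37 without the female libraries, and 2 without 5-month fructose replicate 2 and 23 to 83 without each of the other liver libraries. DESeq2 called 107 genes for diet in tumours, where limma called 0. Between tumour and liver 3458 passed, against 1498 without cornstarch tumour replicate 2. Slc16a3, at 5.14 to 160 normalised counts, is the gene that depth limits most, and it was not tested in the 9-month fit under the filter of 50. The fit of the compared groups alone was run for the 3 diet comparisons within a tissue and age. No paired analysis was possible because the labels give the libraries no replicate numbers shared between groups.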
